A study of Mus musculus with 10 samples.

Results

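The genes that make, take in, store and export cholesterol were followed in pancreatic islets of obese diabetic db/db mice and of lean db/+ mice. The 38 genes were chosen by name: 18 enzymes of cholesterol synthesis, 6 genes that control sterol-regulated transcription, 7 genes of uptake, transport and storage, and 7 genes of liver X receptor (LXR) signalling and efflux. Of these, 37 had a probe under their current or an older symbol, with 42 probes in all, among 19861 named genes on the array. Mvk was not analysed here. The comparison could be tested for 36 of them, among 19567 genes tested, because Fdft1 had too few db/+ values. The question is how synthesis compares with uptake, storage and efflux when db/db islets are set against db/+ islets.

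The db allele disrupts the leptin receptor; db/db mice have it on both copies of the gene and db/+ mice on a single copy. All were 9 weeks old and of the C57BLKS/J background, an age at which, per the labels, db/db mice have severe hyperglycaemia and only a modest excess of insulin. Each group had 5 biological replicates, each hybridised to a 2-colour array of its own. The islet RNA was in Cy5, and a reference of db/+ islet RNA from 9-week mice was in Cy3 on all 10 arrays. The sources used here do not say if the mice behind the reference were those of the db/+ arrays. Whole islets were measured, so every value is an average over endocrine and other cells, and fewer cells of a type cannot be told apart from less RNA per cell.

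Cholesterol is built from acetyl-CoA through mevalonate, farnesyl pyrophosphate and squalene, in a chain of enzymes whose genes are switched on together by the transcription factor SREBP2. When membrane sterol is plentiful, the INSIG proteins hold SREBP2 and its escort SCAP in the endoplasmic reticulum; when sterol is scarce, SREBP2 travels to the Golgi, where a pair of proteases release its active part. LXR receptors do the opposite job: they sense oxidised sterols and switch on genes that move cholesterol out of the cell. In beta cells, membrane cholesterol is known to affect insulin granules and glucose-stimulated secretion.

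The stretch of 250 bases before the annotated start is printed for 5 genes, from the RefSeq promoter table of GRCm38.p6, in the direction of the gene. Hmgcs1, Idi1 and Msmo1 are shown because they were the enzymes with the largest differences between the groups. Srebf2 is shown as the gene of the factor itself, and Nr1h3 as the LXR gene that was higher in db/db islets. Capitals mark the CCAAT box, the site of the factor NF-Y, on either strand (CCAAT or ATTGG), and the first 8 letters of the sterol element, TCACNCCA, or all 9 letters, TCACNCCAC, where the last is present.
Hmgcs1, chr13:119690101-119690350, plus strand: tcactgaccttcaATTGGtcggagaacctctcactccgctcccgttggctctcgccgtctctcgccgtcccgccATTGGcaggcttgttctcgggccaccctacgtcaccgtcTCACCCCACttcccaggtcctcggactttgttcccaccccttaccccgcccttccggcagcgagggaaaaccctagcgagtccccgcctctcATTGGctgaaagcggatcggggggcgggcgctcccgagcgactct
Idi1, chr13:8885356-8885605, plus strand: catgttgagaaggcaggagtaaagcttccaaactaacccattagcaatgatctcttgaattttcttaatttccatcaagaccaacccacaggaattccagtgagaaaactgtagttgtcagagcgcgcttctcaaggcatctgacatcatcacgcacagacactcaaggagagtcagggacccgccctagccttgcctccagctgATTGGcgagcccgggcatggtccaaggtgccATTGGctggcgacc
Msmo1, chr8:64733579-64733828, minus strand: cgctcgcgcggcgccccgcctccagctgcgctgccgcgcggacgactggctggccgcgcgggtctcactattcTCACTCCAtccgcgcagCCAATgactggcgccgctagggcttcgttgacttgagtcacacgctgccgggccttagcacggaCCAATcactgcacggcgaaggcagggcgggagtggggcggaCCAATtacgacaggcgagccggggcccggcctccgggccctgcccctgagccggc
Srebf2, chr15:82147019-82147268, plus strand: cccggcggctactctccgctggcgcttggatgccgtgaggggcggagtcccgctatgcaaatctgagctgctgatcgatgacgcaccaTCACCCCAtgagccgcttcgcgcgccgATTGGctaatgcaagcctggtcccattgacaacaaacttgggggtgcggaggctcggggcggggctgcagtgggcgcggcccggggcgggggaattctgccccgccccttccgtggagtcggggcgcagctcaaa
Nr1h3, chr2:91195117-91195366, minus strand: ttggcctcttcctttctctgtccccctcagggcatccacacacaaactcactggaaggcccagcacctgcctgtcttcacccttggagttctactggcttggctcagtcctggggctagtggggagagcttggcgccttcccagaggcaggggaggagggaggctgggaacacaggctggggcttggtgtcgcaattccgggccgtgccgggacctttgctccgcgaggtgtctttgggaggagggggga

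The Hmgcs1 stretch holds 3 CCAAT boxes, whose outer ends lie 45, 176 and 237 bases before the start, and a full sterol element that begins 137 bases before it. The Idi1 stretch holds CCAAT boxes at 14 and 45 bases and no sterol element. The Msmo1 stretch holds 3 CCAAT boxes and the 8-letter element, at 177 bases. In Srebf2 the 8-letter element at 162 bases is followed by 1 CCAAT box at 135 bases. None of these motifs was found in the Nr1h3 stretch.

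Over all members with an entry in the table, the CCAAT box was present before 14 of 15 synthesis enzymes, Acat2 being the one without it. The same letters were present before 3 of 6 control genes, 4 of 4 uptake and storage genes and 1 of 6 LXR and efflux genes, which was Mylip. Of all 27025 genes in that source, 37.5% hold a CCAAT box in this window, and 39.5% of the 17492 protein-coding ones do. The Sp1 box, GGGCGG, was present before 14 of 15 synthesis enzymes, 5 of 6 control genes, 2 of 4 uptake and storage genes and 2 of 6 LXR and efflux genes, against 45.8% of protein-coding genes and 35.4% of all genes. The 9-letter sterol element was present before Hmgcs1 and Stard3 alone, and 1.22% of all genes hold it. With its last letter left free it was also present before Msmo1, Srebf2 and Apoe, against 4.2% of all genes. Both strands were searched, and the 8-letter motif lies within the 9-letter one. The LXR motif, a direct repeat of AGGTCA with 4 free bases between its copies, was found before none of the 6 LXR and efflux genes with an entry and before 4 genes of the table. A match here is a match of letters, not a measured binding site. Fdps, Fdft1, Sqle, Scarb1, Npc1, Stard4 and Abcg1 have no entry.

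**Figure D1:**
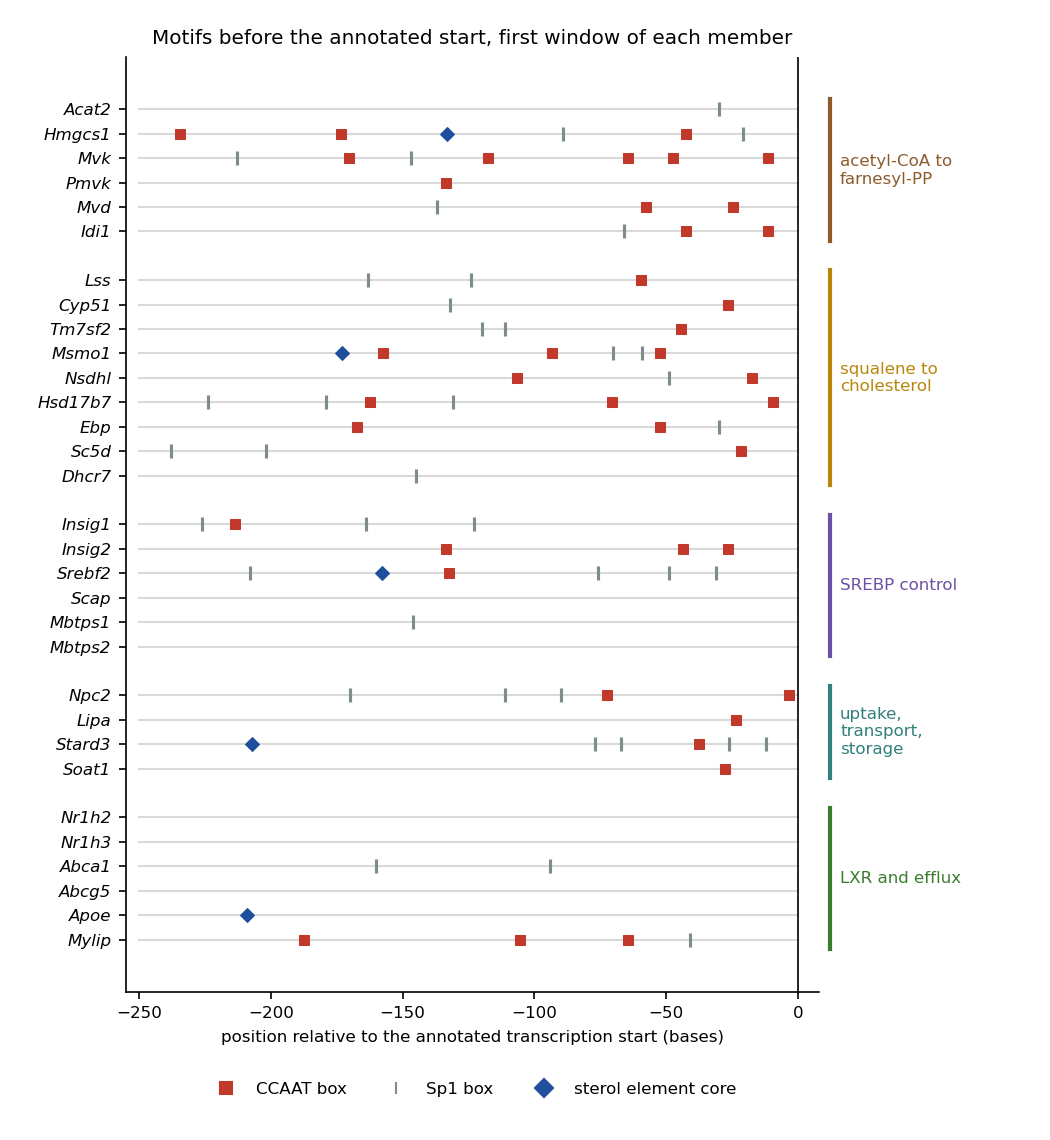
CCAAT boxes (red squares), Sp1 boxes (grey bars) and the 8-letter sterol element (blue diamonds) in the 250 bases before the annotated start of each member, with the distance from the start in bases on the x axis and the members in rows by role. Only the first annotated window of a gene is drawn, so the CCAAT boxes of Dhcr7 and the Sp1 boxes of Insig2 and Scap that lie in later windows, which the text counts, are missing; red squares line most synthesis rows and, among the LXR and efflux rows, that of Mylip.

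The values below are log2 ratios, which set a sample's Cy5 intensity over the reference's Cy3 intensity on the same array, or log2 differences, the mean ratio of db/db arrays minus that of db/+ arrays. A gene was called where limma's adjusted p, over all 19567 genes, was under 0.05. By this rule 17.1% of all genes were higher in db/db islets, 18.1% were lower and 35.2% were called either way. The median log2 difference of all genes was -0.02. Ratios varied more on db/db arrays, where their SD over probes was 0.477 to 0.537, than on db/+ arrays, where it was 0.194 to 0.309. Array intensities are in arbitrary units, and precision is limited by having 5 arrays a group. Very bright probes were often blank: 50.5% of values were missing for the 241 probes with a mean Cy3 intensity of 15 or more, against 1.75% of all values, which touches Fdft1 and Mbtps1 among the members. No member was called when the Cy3 reference itself was compared between the arrays of the groups; 3 of 19567 genes, or 0.0153%, were, and 4.9% had an unadjusted p under 0.05. The lowest adjusted p of a member in that comparison was 0.861.

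RNA of the synthesis enzymes was lower in db/db islets along most of the chain. Of the 16 enzymes tested, 12 were called lower, against 18.1% of all genes, 1 was called higher, against 17.1%, and 3 were not called. Their median log2 difference was -0.63 and the range was -2.31 to 0.29. A fall of 2-fold or more was called for 5 of the 16, against 1.54% of all genes. No member was called 2-fold or more higher, against 3.1% of all genes. All 5 db/db ratios lay below all 5 db/+ ratios for 9 of the 16 enzymes, against 13.2% of the genes with 10 values. The steps to farnesyl pyrophosphate had a median log2 difference of -0.99 over 6 enzymes, with 5 called lower. The steps from squalene to cholesterol had one of -0.37 over 10 enzymes, with 7 called lower and 1 called higher. Beta cell markers were lower in the same samples. Of 9 beta cell markers tested, 6 were called lower, against 18.1% of all genes, and none higher. Their summed Cy5 intensity was 10.85 to 11.99 units in db/db islets and 18.62 to 21.36 units in db/+ islets. Kcnj11 carried most of the lower sum, with means of 6.8 units in db/db islets and 13 units in db/+ islets. Another 3 markers were dim, with means under 0.049 units in both groups. The beta cell markers Slc2a2, Slc30a8 and Iapp had no db/+ values, so they were not tested and are not in the sum. Their mean log2 ratios in db/db islets were -2.08, -0.90 and 0.29, that of Iapp over 3 arrays. The part of the beta cell markers in the lower values of synthesis was not tested.

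Hmgcs1, the HMG-CoA synthase early in the chain, had the largest difference of all members. Its log2 ratio was -2.20, -2.31, -2.51, -2.52 and -2.23 in db/db islets, against -0.07, -0.05, 0.03, -0.09 and -0.02 in db/+ islets. The groups lay far apart, with every db/+ sample close to the reference. Hmgcs1 fell by 2.31 ± 0.07 on the log2 scale (SE, n = 5 each), which is 4.97-fold, with an adjusted p of 1.52e-07. Only 15 of 19567 genes had a lower difference, so Hmgcs1 ranked 16 from the bottom. The Cy5 intensity averaged 2.89 units in db/db islets and 12.7 units in db/+ islets, while the Cy3 reference averaged 14.8 units on db/db arrays and 13.1 units on db/+ arrays. A second Hmgcs1 probe gave a log2 difference of -2.46 ± 0.07.

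Idi1, the isomerase that turns isopentenyl pyrophosphate into the partner it condenses with, fell nearly as far. The 5 arrays gave log2 ratios of -2.03, -2.10, -2.10, -1.92 and -2.15 in db/db islets, against 0.02, -0.01, 0.29, 0.29 and 0.19 in db/+ islets. The spread within db/db islets was narrow and no sample came near the other group. The log2 difference was -2.21 ± 0.07, a 4.64-fold fall, with an adjusted p of 2.1e-07 and rank 20 from the bottom of all genes. Cy5 intensity averaged 2.76 units in db/db islets and 12.3 units in db/+ islets.

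Mvd, which decarboxylates mevalonate pyrophosphate, was lower in every db/db sample. Its log2 ratios were -1.47, -1.25, -1.37, -1.34 and -1.27 in db/db islets, against -0.10, -0.24, -0.01, 0.10 and -0.01 in db/+ islets, a log2 difference of -1.29 ± 0.07 (2.44-fold, adjusted p = 1.89e-06). Pmvk, the kinase 1 step before it, had db/db ratios from -0.79 to -0.04, with a median of -0.38, and db/+ ratios from -0.11 to 0.37, with a median of 0.27. The groups overlapped, and the log2 difference was -0.56 ± 0.15 (adjusted p = 0.0138).

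Fdps makes farnesyl pyrophosphate, the branch point to sterols, prenylated proteins, dolichol and ubiquinone. Ratios of -0.93, -0.91, -1.34, -0.81 and -0.86 were measured in db/db islets, against -1.04, -0.44, -0.18, 0.26 and 0.07 in db/+ islets. All db/db samples were low, with replicate 3 the lowest, while db/+ islets ranged widely and db/+ replicate 1 was as low as the db/db samples. The log2 difference of -0.70 ± 0.23 had an adjusted p of 0.0382, and the call was lost without any one of the 5 db/db arrays or of db/+ replicates 2 to 5, with adjusted p-values of 0.0528 to 0.091, and after quantile normalization (0.597). Acat2, which starts the chain with acetoacetyl-CoA, was not called, at -0.13 ± 0.06 (adjusted p = 0.145).

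Squalene synthase, Fdft1, could not be tested. Its log2 ratio was -0.17, -0.48, -0.50, -0.49 and -0.33 in db/db islets, against 0.27 and 0.05 in db/+ replicates 4 and 5, and the other 3 db/+ arrays were blank. Every measured db/db ratio was below both db/+ ratios, at Cy5 intensities of 13.3 units in db/db islets and 17.4 units in db/+ islets, near the top of the arrays' scale.

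**Figure D2:**
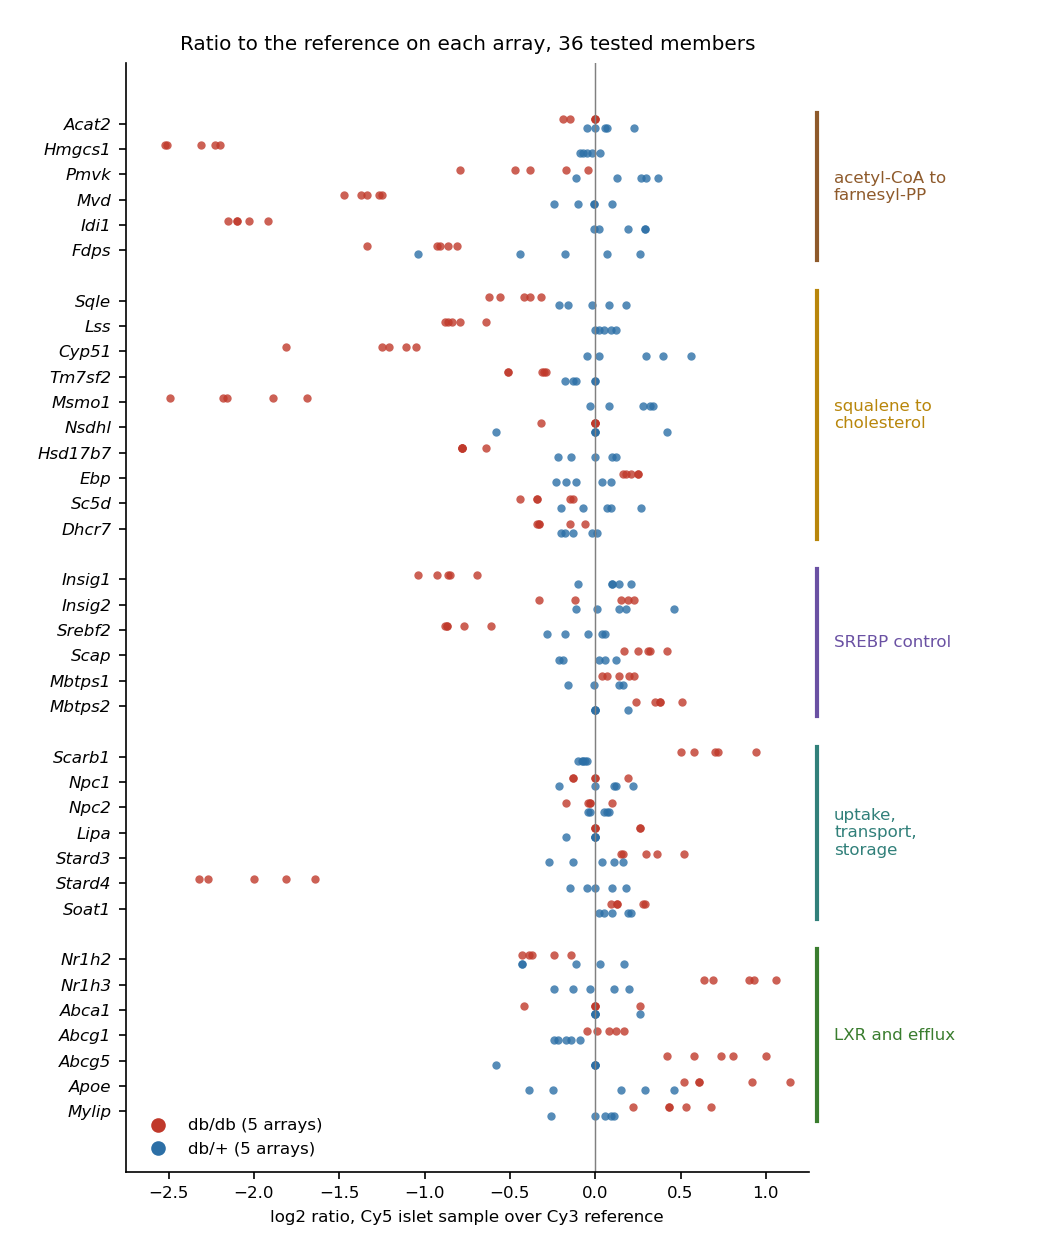
Log2 ratio of the Cy5 islet sample to the Cy3 reference (x axis) on each array for the 36 tested members in rows by role, with db/db points in red above db/+ points in blue. Hmgcs1, Idi1, Msmo1 and Stard4 form separate db/db clouds below -1.6, while Scarb1, Nr1h3, Abcg5 and Mylip lie to the right of their db/+ points.

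After squalene, the size of the fall differed from enzyme to enzyme. Msmo1, listed on the array as Sc4mol, is the sterol C4-methyl oxidase. Its log2 ratio was -2.49, -2.16, -1.89, -1.69 and -2.18 in db/db islets, against 0.08, -0.03, 0.34, 0.28 and 0.32 in db/+ islets. The log2 difference was -2.28 ± 0.15 (4.86-fold, adjusted p = 4.98e-06), rank 19 from the bottom, with mean Cy5 intensities of 2.85 units in db/db islets and 13.4 units in db/+ islets. The groups were far apart although both spread over a wider range than for Idi1. Hsd17b7, the keto-reductase of the same demethylation complex, had a log2 difference of -0.72 ± 0.07 (adjusted p = 5.45e-05), but its intensities of about 0.07 to 0.15 units were rounded to 0.01. Nsdhl, the dehydrogenase of that complex, had a log2 difference of -0.03 and an adjusted p of 0.919, with a signal of 0.02 to 0.04 units, too dim to rank its samples.

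Cyp51, the lanosterol 14-demethylase, had log2 ratios of -1.81, -1.25, -1.11, -1.05 and -1.21 in db/db islets, against 0.02, -0.05, 0.30, 0.56 and 0.40 in db/+ islets. Replicate 1 of db/db was the lowest, and all db/db values were below all db/+ values. The difference was -1.53 ± 0.17 (2.89-fold, adjusted p = 0.000101). Lss, which closes squalene epoxide into lanosterol, had ratios of -0.86, -0.88, -0.84, -0.79 and -0.64 in db/db islets, against 0.09, 0.02, 0.00, 0.12 and 0.05 in db/+ islets, a log2 difference of -0.86 ± 0.05 (1.81-fold, adjusted p = 3.06e-06).

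Sqle, the squalene epoxidase and a second point of control of the pathway, was lower by less. Sqle had log2 ratios of -0.42, -0.62, -0.38, -0.32 and -0.56 in db/db islets, against -0.21, -0.16, -0.02, 0.18 and 0.08 in db/+ islets. The groups did not overlap but came close, and the difference was -0.43 ± 0.09 (1.35-fold, adjusted p = 0.0044). Tm7sf2, a sterol C14-reductase, had a log2 difference of -0.30 ± 0.06 (adjusted p = 0.00504). After quantile normalization of the ratios neither Sqle nor Tm7sf2 was called, with adjusted p-values of 0.204 and 0.235. Sc5d, the C5-desaturase, had overlapping groups, from -0.44 to -0.13 in db/db islets and from -0.20 to 0.27 in db/+ islets, with a difference of -0.31 ± 0.09 and an adjusted p of 0.0288. The Sc5d call was lost under 8 of 19 alternatives, 6 of which leave out 1 array (adjusted p 0.0559 to 0.0654).

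Near the end of the chain the pattern stopped. Ebp, the sterol isomerase, was the one synthesis enzyme called higher, with log2 ratios of 0.16, 0.21, 0.25, 0.25 and 0.18 in db/db islets, against 0.04, 0.09, -0.11, -0.23 and -0.17 in db/+ islets. Its log2 difference was 0.29 ± 0.06 (1.22-fold, adjusted p = 0.00644), at Cy5 intensities of 13.3 units in db/db islets and 11 units in db/+ islets. Ebp was no longer called after quantile normalization, at an adjusted p of 0.109, or with the Cy5 signal alone, at 0.291. Dhcr7, the last reductase, was not called, at -0.14 ± 0.07 (adjusted p = 0.163).

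**Figure D3:**
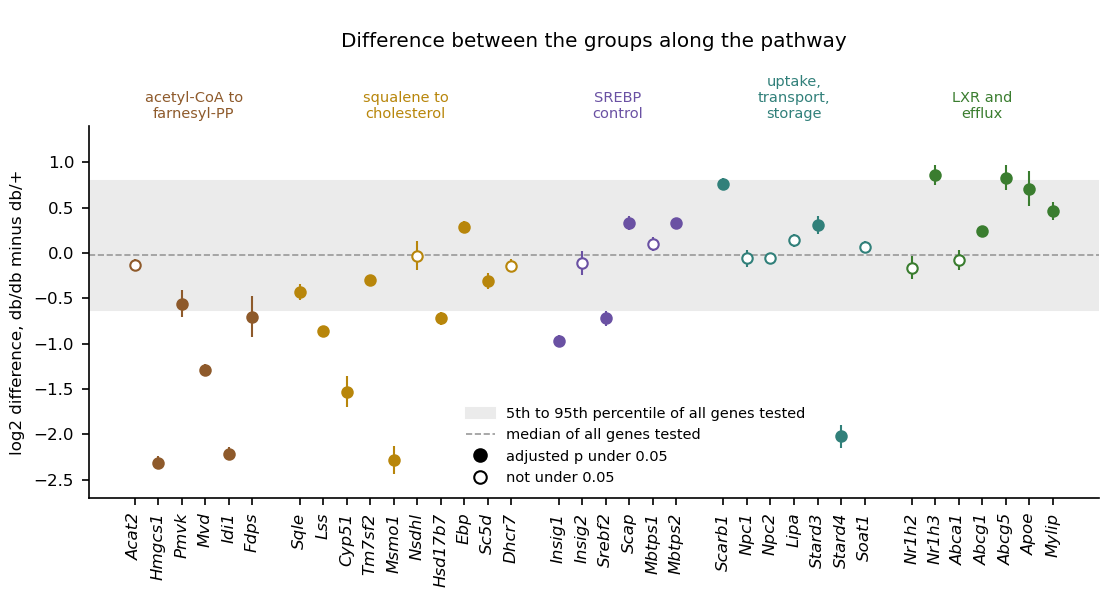
Log2 difference, db/db minus db/+, with its SE (y axis) for the 36 tested members in pathway order (x axis), beside the 5th to 95th percentile of all 19567 genes tested (grey band) and their median of -0.02 (dashed). Filled points have an adjusted p under 0.05; Hmgcs1, Idi1, Msmo1 and Stard4 lie below -2 and most points below the band belong to synthesis enzymes.

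The genes that control SREBP were split. Srebf2 and Insig1 were lower in db/db islets, Scap and Mbtps2 were called higher, and Insig2 and Mbtps1 were not called. Of all genes, 18.1% were called lower and 17.1% higher. The median log2 difference of the 6 control genes was -0.00. Srebf2 encodes SREBP2 and is itself one of its targets. Srebf2 had log2 ratios of -0.77, -0.87, -0.88, -0.87 and -0.61 in db/db islets, against 0.04, 0.06, -0.04, -0.28 and -0.18 in db/+ islets, without overlap. The log2 difference was -0.72 ± 0.08 (1.65-fold, adjusted p = 0.000114).

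Insig1, the sterol-sensing anchor and a strong SREBP target, had log2 ratios of -0.85, -0.93, -1.04, -0.86 and -0.69 in db/db islets, against 0.14, 0.10, 0.21, 0.10 and -0.10 in db/+ islets. The difference was -0.97 ± 0.07 (1.95-fold, adjusted p = 1.38e-05). Its relative Insig2 had a difference of -0.11 ± 0.13 (adjusted p = 0.556), with db/db ratios from -0.33 to 0.23 inside and below the db/+ range of -0.11 to 0.46.

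Scap, the escort, was higher by 0.33 ± 0.08 (1.26-fold, adjusted p = 0.00763), with ratios from 0.17 to 0.42 in db/db islets and from -0.21 to 0.12 in db/+ islets. Mbtps2, the site-2 protease that frees the active fragment, was higher by 0.33 ± 0.06 (adjusted p = 0.00181), with ratios from 0.24 to 0.51 in db/db islets and from 0.00 to 0.19 in db/+ islets, at intensities of 0.08 to 0.14 units that are rounded to 0.01. Both lost the call after quantile normalization (adjusted p 0.171 for Scap and 0.195 for Mbtps2) and with the Cy5 signal alone (adjusted p 0.256 for Scap and 0.225 for Mbtps2). Mbtps1, the site-1 protease, had a difference of 0.10 ± 0.08 (adjusted p = 0.341) with 4 db/+ values.

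**Figure D4:**
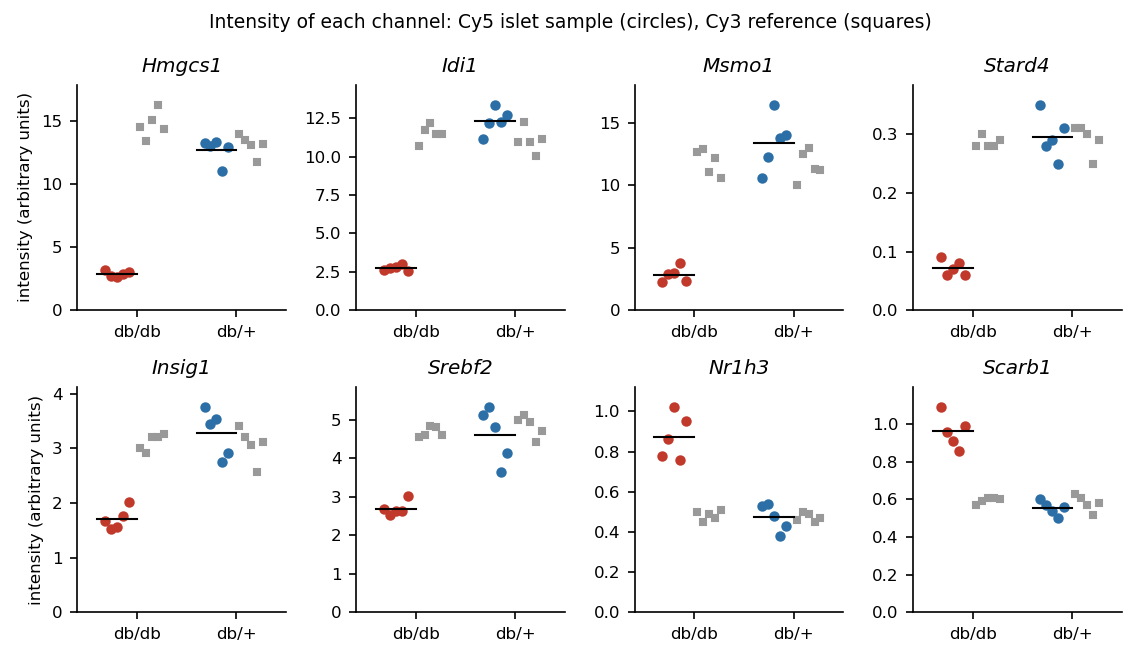
Intensity in arbitrary units (y axis, from 0) of the Cy5 islet sample (circles, red for db/db and blue for db/+, bar at the mean) and of the Cy3 reference on the same arrays (grey squares) for 8 members. For Hmgcs1 the Cy5 mean is 2.89 in db/db islets and 12.7 in db/+ islets, while the reference stays near the db/+ level on all arrays.

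The genes of uptake, transport and storage showed no common direction. Of 7 genes, 2 were called higher, against 17.1% of all genes, and 1 was called lower, against 18.1%. The other 4 were not called, and the median log2 difference was 0.07. Stard4 carries cholesterol through the cytosol and is known as an SREBP target. Its log2 ratio was -1.64, -2.32, -2.00, -1.81 and -2.27 in db/db islets, against 0.18, -0.15, -0.05, 0.00 and 0.10 in db/+ islets. Stard4 fell 4.06-fold, by 2.02 ± 0.13 on the log2 scale (adjusted p = 6.04e-06), and ranked 31 from the bottom of all genes. Its Cy5 intensity averaged 0.072 units in db/db islets and 0.296 units in db/+ islets. The db/db values of 0.06 to 0.09 units were rounded to 0.01, which limits the size of the fall. A second probe gave a log2 difference of -2.17 ± 0.14, but was dimmer, at a mean of 0.038 units in db/db islets. Stard3, a late-endosome relative of Stard4, had ratios from 0.15 to 0.52 in db/db islets and from -0.27 to 0.16 in db/+ islets, which overlap slightly. Its difference was 0.31 ± 0.10 (adjusted p = 0.0347), and the call was lost without any one of db/db replicates 1, 2 and 5 or db/+ replicates 3, 4 and 5 (adjusted p 0.0565 to 0.0814), and after quantile normalization (0.345).

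Scarb1 encodes SR-B1, a receptor that takes cholesteryl ester from high-density lipoprotein. Its log2 ratio was 0.94, 0.70, 0.58, 0.50 and 0.72 in db/db islets, against -0.07, -0.10, -0.08, -0.06 and -0.05 in db/+ islets. The db/+ values were almost identical and every db/db value was higher, giving a difference of 0.76 ± 0.07 (1.69-fold, adjusted p = 5.2e-05). Of the genes that free cholesterol in lysosomes, Npc1 and Npc2, which move it out, had log2 differences of -0.06 each (adjusted p 0.644 and 0.415), and the acid lipase Lipa had 0.14 (adjusted p = 0.167).

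Soat1, which esterifies cholesterol for storage, gave different answers by probe. The brighter probe, which represents the gene, had a log2 difference of 0.07 ± 0.06 and an adjusted p of 0.387. The dimmer one had ratios of 1.15, 1.00, 0.88, 0.84 and 1.11 in db/db islets, against 0.00, 0.18, 0.00, 0.00 and -0.13 in db/+ islets, a difference of 0.98 ± 0.08 with an adjusted p of 1.57e-05 over all probes. Both probes carry the Soat1 name under different transcript records, and the files give no position that would tell them apart.

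Most LXR and efflux genes moved the other way from synthesis. Of 7 genes, 5 were called higher, against 17.1% of all genes, and none was called lower, against 18.1%. The median log2 difference was 0.46, the value of Mylip. The 5 called were the same 5 whose db/db ratios all lay above all db/+ ratios, a separation seen for 12.9% of the genes with 10 values. Macrophage and mesenchymal markers were higher in the same samples. Of 15 macrophage markers 8 were called higher, against 17.1% of all genes, and none lower, against 18.1%. Summed intensities were 27.9 to 35.73 units in db/db islets and 17.23 to 27.89 units in db/+ islets. C1qa carried most of the higher sum, with means of 14.2 units in db/db islets and 8.05 units in db/+ islets. Of 9 mesenchymal markers 8 were called higher and none lower, with 3.75 to 7.18 units in db/db islets and 1.38 to 2.62 units in db/+ islets. None of them was listed at 0. Macrophages are known to express Apoe, Nr1h3 and Abcg1, and the part of these markers in the higher values was not tested. Nr1h3, the gene of LXR alpha, had log2 ratios of 0.64, 0.93, 1.06, 0.69 and 0.90 in db/db islets, against 0.20, 0.11, -0.03, -0.24 and -0.13 in db/+ islets. The difference was 0.86 ± 0.11 (1.82-fold, adjusted p = 0.000216). Nr1h2, the gene of LXR beta, was not called, at -0.16 ± 0.13 (adjusted p = 0.372), and its 2 other probes were dim and not called.

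Apoe, the lipoprotein that accepts exported cholesterol, had log2 ratios of 0.52, 1.14, 0.92, 0.61 and 0.61 in db/db islets, against 0.46, 0.15, 0.29, -0.39 and -0.25 in db/+ islets. The ranges came within 0.1 of each other, and the difference was 0.71 ± 0.19 (1.64-fold, adjusted p = 0.0151). Mylip, a ubiquitin ligase known as IDOL and an LXR target, had ratios of 0.43, 0.22, 0.68, 0.43 and 0.53 in db/db islets, against 0.00, -0.26, 0.09, 0.11 and 0.06 in db/+ islets. Its difference was 0.46 ± 0.10 (1.37-fold, adjusted p = 0.0045). After quantile normalization neither Apoe (adjusted p = 0.387) nor Mylip (adjusted p = 0.0983) was called.

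Among the exporters, Abcg1, which loads high-density lipoprotein, had ratios from -0.05 to 0.17 in db/db islets and from -0.24 to -0.09 in db/+ islets. Its difference was 0.24 ± 0.05 (1.18-fold, adjusted p = 0.00437), and the adjusted p was 0.0798 with the Cy5 signal alone. Abcg5, a partner in a sterol pump known from liver and gut, had a difference of 0.83 ± 0.14 (adjusted p = 0.0017), but at Cy5 intensities of 0.04 to 0.07 units in db/db islets and 0.02 to 0.03 units in db/+ islets, where a rounding step of 0.01 is a large part of the value. Abca1, the exporter to lipid-poor apolipoprotein, was as dim, with a difference of -0.08 (adjusted p = 0.61), so its level could not be compared at this signal.

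**Figure D5:**
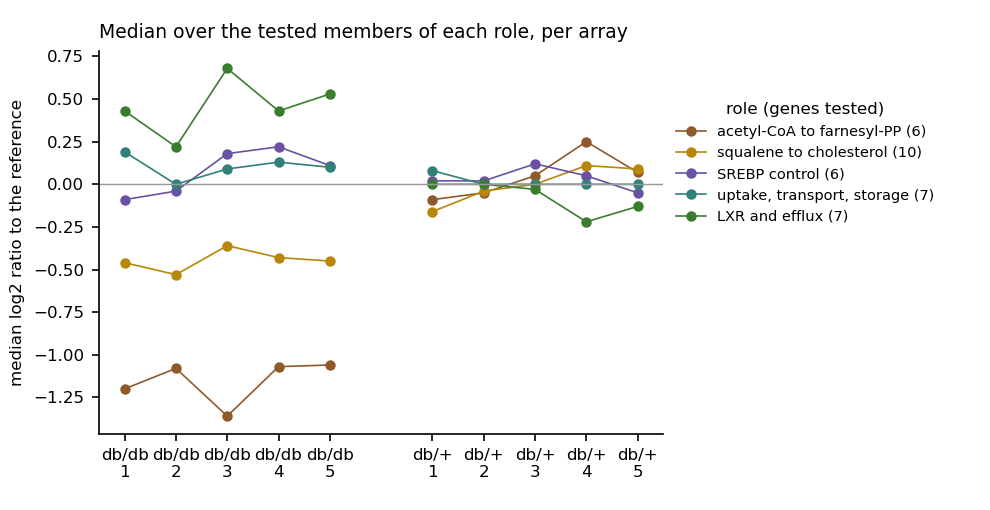
Median log2 ratio to the reference over the tested members of each role (y axis) on each array, db/db replicates on the left and db/+ replicates on the right; lines join the arrays of a group and carry no order. The steps to farnesyl pyrophosphate lie between -1.36 and -1.06 on db/db arrays and the LXR and efflux genes between 0.22 and 0.68, while all db/+ medians lie between -0.22 and 0.25.

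The median ratios of synthesis and of the LXR and efflux genes lay on opposite sides of the reference on every db/db array. The median ratio of the enzymes up to farnesyl pyrophosphate was -1.20, -1.08, -1.36, -1.07 and -1.06 in db/db islets, against -0.09, -0.05, 0.05, 0.25 and 0.07 in db/+ islets. That of the enzymes from squalene on was -0.46, -0.53, -0.36, -0.43 and -0.45 in db/db islets, against -0.16, -0.04, 0.00, 0.11 and 0.09 in db/+ islets. For the LXR and efflux genes it was 0.43, 0.22, 0.68, 0.43 and 0.53 in db/db islets, against 0.00, 0.00, -0.03, -0.22 and -0.13 in db/+ islets. On each db/db array that median was the ratio of Mylip, the ubiquitin ligase. Nr1h3, Apoe and Abcg5 lay above the reference on all 5 db/db arrays, with Abcg5 dim. Abcg1 ranged from -0.05 to 0.17 there, Abca1 from -0.42 to 0.26 and Nr1h2 from -0.43 to -0.14. Among the roles, the enzymes up to farnesyl pyrophosphate had the lowest median and the LXR and efflux genes the highest on all 5 db/db arrays. Over all 36 members, 10 were called higher, 15 lower and 11 neither way; the counts stand beside 17.1% of all genes higher and 18.1% lower.

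The authors' deposited table gives a p-value for each array. There, in the authors' deposited table, 12 members had a p under 0.01 on all 5 db/db arrays, against 8.55% of genes with values there: Hmgcs1, Mvd, Idi1, Fdps, Lss, Cyp51, Msmo1, Insig1, Srebf2, Scarb1, Stard4 and Nr1h3. Of these, Fdps also had a p under 0.01 on 2 db/+ arrays in the authors' deposited table, and the other 11 had none there.

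Genes around the pathway were counted in lists, beside the 17.1% of all genes called higher and the 18.1% called lower. The branches of farnesyl pyrophosphate that do not lead to sterols, dolichol, ubiquinone and protein prenylation, had 3 genes called higher and 3 called lower of 13, with a median log2 difference of 0.01. Nus1, a subunit of the enzyme that makes dolichol chains, was higher by 0.40 and Pdss2, of ubiquinone synthesis, by 0.31. Ggps1, the geranylgeranyl pyrophosphate synthase, had -0.39 and Fnta, a prenyltransferase subunit, -0.31. Their adjusted p-values were 0.00242, 0.00343, 0.00449 and 0.00802.

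Other sterol genes outside the 38 had 7 called higher and 10 called lower of 37 tested, against 17.1% and 18.1% of all genes. Their median log2 difference was -0.07. Paqr3, known to tether SCAP and SREBP in the Golgi, had a log2 difference of -1.16 (adjusted p = 1.03e-06), and Lbr, the other sterol C14-reductase, one of -0.85 (adjusted p = 5.78e-05). Cyp7b1, an oxysterol hydroxylase, was higher by 0.76 (adjusted p = 1.18e-05) and Stard5, a sterol carrier, by 0.60 (adjusted p = 0.000352).

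The LXR targets outside the members did not share the direction of most LXR and efflux genes. Of 12, 3 were called higher and 3 lower, against 17.1% and 18.1% of all genes, with a median log2 difference of -0.10. Lpl, the lipoprotein lipase, fell by 2.02 on the log2 scale (adjusted p = 4.11e-07). Srebf1, which drives fatty acid synthesis, fell by 0.91 (adjusted p = 0.0011), while Smpdl3a was higher by 0.86 and Lxn by 0.32 (adjusted p 3.62e-05 and 0.000638). Of 14 fatty acid genes under SREBP control, 8 were called lower, against 18.1%, and 1 higher, against 17.1%, with a median of -0.34. Acsl3, which activates fatty acids, fell by 1.74, Fads2, a desaturase, by 1.09, and Elovl6, an elongase, by 0.97 (adjusted p 2.75e-05, 2.45e-05 and 0.000139). The one gene called higher was Fabp5, a fatty acid carrier, by 2.22 (adjusted p = 1.03e-06).

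Markers of further cell types were counted as well, beside the 17.1% of all genes called higher and the 18.1% called lower. The part of these markers in the results was not tested. Duct markers had 3 higher of 7, with 24.33 to 30.13 units in db/db islets and 16.23 to 23.22 units in db/+ islets. Spp1 carried most of the higher duct sum, with means of 19.7 units in db/db islets and 14.3 units in db/+ islets. Endothelial markers had 1 higher and 2 lower of 8, with 10.98 to 15.39 units in db/db islets and 7.74 to 11.18 units in db/+ islets. Plvap alone carried the higher sum, with 9.38 units in db/db islets and 4.96 units in db/+ islets, and the other 7 had negative log2 differences, Flt1 and Tie1 being those called lower.

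Alpha cell markers had 2 higher and 1 lower of 5, beside the 17.1% of all genes called higher and the 18.1% called lower. The alpha marker sum was 2.84 to 3.31 units in db/db islets and 1.98 to 2.51 units in db/+ islets. Delta and PP cell markers had 1 higher and 2 lower of 4, with 3.04 to 4.31 units in db/db islets and 4.84 to 6.75 units in db/+ islets. Acinar markers had 2 lower of the 4 tested, with 12.35 to 29.09 units in db/db islets and 29.59 to 45.35 units in db/+ islets. Red blood cell markers had 2 higher and 1 lower of 5, with 10.84 to 27.96 units in db/db islets and 3.04 to 11.41 units in db/+ islets. No marker was listed at 0 in either group.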

How the data were processed

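Islet RNA of 5 db/db and 5 db/+ mice was measured on 10 arrays of 2 colours, after Trizol extraction and 2 rounds of amplification from 100 ng, per the labels' protocols. Per the submitters' processing notes, the scanner software was Agilent Feature Extraction 8.5.1.1. The deposited intensities of both channels are in arbitrary units, mostly rounded to 0.01, per the file headers and values. The authors' table also holds a p-value per probe and array, whose method the sources used here do not state. The deposited log10 ratios were checked to equal log10 of the Cy5 over the Cy3 intensity to within 4.98e-07. How background and dye were corrected, and why spots were blank, is likewise not stated, and no flag for background or saturation was used.

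The log10 ratios were turned into log2, with no pseudocount and no scaling. Probe symbols were looked up in RefSeq's gene table for GRCm38.p6, and 1245 of 23512 probes had no name. For each gene the probe with the brightest mean Cy3 signal and at least 3 values in each group was taken. Each array had 22657 to 23365 values. The db/db and db/+ arrays were compared by limma 3.58.1 under R 4.3.3 (lmFit, eBayes, 2-sided, Benjamini-Hochberg over 19567 genes, threshold 0.05), and SE is moderated. Steps were tested on simulated data. Tables and figures used Python 3.11.15, pandas 2.3.3 and matplotlib 3.10.9. Promoter motifs were searched in the 250 bases upstream, on both strands. Alternatives were quantile normalization, the Cy5 signal alone, a filter on probes under 0.049 units, the mean of probes, a replicate block, fits with a trended variance or array weights, genes with 10 values, exact permutation tests, a window of 150 bases and leaving out each array. A sterol element without its last base was added after the data were seen. The members and lists were chosen with earlier results of these data known. All 38 members are named, and of each other list at most the 4 called genes of smallest adjusted p. Beta cell markers without db/+ values are named besides.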

Additional observations from a re-analysis of the deposited data

Results flagged for a closer look

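In 8 of 72 sets of 5 replicates examined (each member in each group), 1 sample stood apart from the other 4 by Dixon's test at the 95% level, which chance gives in about 1 of 20. Among the less dim genes, Fdps had a log2 ratio of -1.34 in db/db replicate 3, against -0.93 to -0.81 in the other db/db samples. Cyp51 had -1.81 in db/db replicate 1, against -1.25 to -1.05. That Cyp51 value came from a Cy5 intensity of 0.16 units, rounded to 0.01. The other 6 were dim probes whose remaining 4 ratios were equal after rounding. Nsdhl had -0.32 in db/db replicate 1, where the others were at 0.00, and Hsd17b7 had -0.64 in db/db replicate 2, where the others were at -0.78. In db/+ islets, where the other samples were at 0.00, Mbtps2 had 0.19 in replicate 3, Lipa -0.17 in replicate 4, Abca1 0.26 in replicate 4 and Abcg5 -0.58 in replicate 3.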

How the results depend on the processing

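Of the 25 members called, 14 were called under every alternative that gave them a value, 11 lost the call under at least 1, and none changed sign. After quantile normalization of the ratios, 1677 genes were called higher and 1508 lower in db/db islets, with 8 synthesis enzymes lower and 0 higher, 0 control genes higher, 1 uptake gene higher and 3 LXR and efflux genes higher. With the Cy5 signal without the reference, 0 synthesis enzymes and 0 control genes were higher, while 11 synthesis enzymes were lower and 4 LXR and efflux genes higher. Without dim probes 4 LXR and efflux genes were higher, since Abcg5 is dim and was left out of that fit. Leaving out 1 array at a time gave 10 to 12 synthesis enzymes lower, 1 to 2 uptake genes higher and 5 LXR and efflux genes higher. The uptake count was 1 without db/db replicates 1, 2 or 5 or db/+ replicates 3, 4 or 5. Members not called changed sign in these cases: Nsdhl at 0.01 with the Cy5 signal, 0.03 without db/db replicate 1 and 0.08 without db/+ replicate 5 (range -0.17 to 0.08); Dhcr7 at 0.03 and Nr1h2 at 0.02 after quantile normalization; Mbtps1 at -0.11 and Lipa at -0.17 with the Cy5 signal; Soat1 at -0.09 after quantile normalization and -0.05 with the Cy5 signal; and Abca1 at 0.01 without db/db replicate 2, its range without 1 array being -0.16 to 0.01. Soat1 was called with the mean of its probes (0.53, adjusted p = 0.000132). The cause of these changes was not tested. With the replicate number as a block, 3251 genes were higher, 3529 lower and 11 synthesis enzymes lower, Fdps losing its call at an adjusted p of 0.0512. The deviations of same-numbered samples correlated by 0.0365 to 0.221, and db/db replicates 3 and 4, but not 1, 2 and 5, correlated best with the db/+ sample of their own number. Since not every correlation was over 0.1, the numbers were not taken to pair the samples. In the last 150 bases before the start, the 8-letter sterol element was found before 1 synthesis enzyme and no other member, and the 9-letter one before no uptake gene. Dim probes (Nsdhl, Abca1, Abcg5, Hsd17b7, Mbtps2, Lipa, and Stard4 in db/db islets) are limited by rounding, and Fdft1 by blank values.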
